A study of Arabidopsis thaliana with 4 samples.

Results

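The core circadian clock of Arabidopsis thaliana was followed through 10 genes: LHY (AT1G01060), CCA1 (AT2G46830), PRR9 (AT2G46790), PRR7 (AT5G02810), PRR5 (AT5G24470), TOC1 (AT5G61380), GI (AT1G22770), ELF3 (AT2G25930), ELF4 (AT2G40080) and LUX (AT3G46640). They were chosen by name as the transcription factors and partners that make up the central oscillator, and found in the array table by their locus numbers. All 10 had a probe set, out of 27826 probe sets in all. Transcript levels came from Affymetrix arrays of whole rosettes at an age of 4 weeks, grown in cycles of 12 h light and 12 h darkness at 22 °C by day and 18 °C by night, from seeds kept cold at 4 °C for 2 days. The 4 arrays were 2 of the wild-type accession Columbia-0 (Col-0) and 2 labelled 35S:∆13RAP2.12, in the same accession. All 4 were harvested 10 h into the light period, so every value below describes 1 point of the daily cycle, late in the day, and the timing or height of a rhythm was not measured. The study compared rosettes labelled as carrying the shortened RAP2.12 with the wild type. Its design text names more arrays than these 4, and the others were not analysed here.

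RAP2.12 is an ethylene response factor of group VII that switches on genes of the low-oxygen response. The amino terminus of the protein marks it for breakdown when oxygen is present, and a form that lacks this end is stable in air. The 35S promoter comes from a plant virus and drives transcription nearly everywhere in the plant, so the form is not limited to a cell type. The labels do not say how many independent lines were used or whether plants were pooled. The labels number the replicates but name no separate cultures or plants, so errors and p-values measure the spread between these arrays, which may be technical.

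The plant clock is a loop of repressors that act at successive times of day. The MYB factors CCA1 and LHY peak around dawn and repress genes of the evening. The pseudo-response regulators follow in the order PRR9, PRR7, PRR5 and TOC1 through the day into the evening, and repress CCA1 and LHY. GI, a large protein that stabilises the F-box protein ZTL, and the evening complex of ELF3, ELF4 and LUX peak towards dusk, and the evening complex represses PRR9 among other targets. In leaves this clock times photosynthesis, sugar use, growth and cold response.

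Across all probe sets the arrays were alike, with a Pearson's r of 0.993 within each group and 0.978 to 0.980 between groups, computed across probe sets that are not independent of each other. RAP2.12 itself had log2 levels of 11.07 and 11.16 in the wild type, and the other line, labelled 35S:∆13RAP2.12, had 11.28 and 11.06, so the label was not borne out by this probe set (log2 difference 0.06, SE 0.13, limma adjusted p = 0.879). Whether its probes lie in the part that the transgene carries is not known here, and directions below are those of the labelled arrays. Among 11 organ markers none passed the test. The leaf genes RBCS1A, RCA, LHCB2.1 and CA1 differed by between -0.12 and -0.02. Of the 4 floral genes AP1, AP3 and PI had wild-type means of 4.18, 3.72 and 4.03, below the lower quartile of 4.76 for all probe sets. AG stood at 6.43 in the wild type and 5.33 on the labelled arrays (adjusted p = 0.0690). Of the root genes, EXPA7 and COBL9 lay below that quartile in the wild type, at 4.45 and 4.42, while PYK10 had 10.40 and 11.11 (adjusted p = 0.102). The part of AG and PYK10 in the results below was not tested. In whole rosettes, a change in the number of cells of a type cannot be told apart from a change in RNA per cell.

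None of the 10 core clock transcripts passed the test between the lines. With limma, and p-values adjusted by Benjamini-Hochberg over all probe sets, 0 of 10 reached an adjusted p below 0.05, where 2.17% of all probe sets did, 1.74% as higher and 0.424% as lower. At an unadjusted p below 0.05 it was 1 of 10, PRR9, against 16.2% of all probe sets. A fit whose prior variance followed the level also called 0 of 10, where 6.32% of all probe sets passed. A robust fit called 0 of 10, and 538 of all probe sets. With 10 genes, a count of 0 does not show a lower share than that of all probe sets. The fit that left out probe sets of low mean level, described below, called 1 of 10, PRR9, and 4.32% of the 20869 probe sets tested. Signs were even, with 5 differences above 0 and 5 below, beside 11812 above and 16014 below over all probe sets. The median log2 difference was -0.01, beside -0.04 over all probe sets. The median size of the difference was 0.07 for the clock genes and 0.17 for all probe sets. This size varied with level. Above the upper quartile of mean level it was 0.06 for 7 clock genes and 0.12 for all probe sets. Between the lower quartile and the median it was 0.47 for LHY, CCA1 and PRR9 and 0.27 for all probe sets. Of the 6957 probe sets above the upper quartile, 67 reached an adjusted p below 0.05. In 6 of the 10 genes, PRR5, TOC1, GI, ELF3, ELF4 and LUX, the difference was smaller than 0.1, as it was in 31.8% of all probe sets. That share covers all levels, whereas these 6 genes lie above the upper quartile of mean level. Each of these 6 differences was also smaller than its standard error, so their signs carry little weight. A difference of at least 1 was seen for 1 of the 10, PRR9, and for 3.94% of all probe sets. The arrays of the groups did not overlap for 4 of the 10, CCA1, PRR9, PRR7 and GI, where 48.6% of all probe sets showed no overlap. With 2 arrays a group, an exact permutation test of a single gene cannot give a two-sided p below 0.333, so the fit across all probe sets was used throughout.

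**Figure D1:**
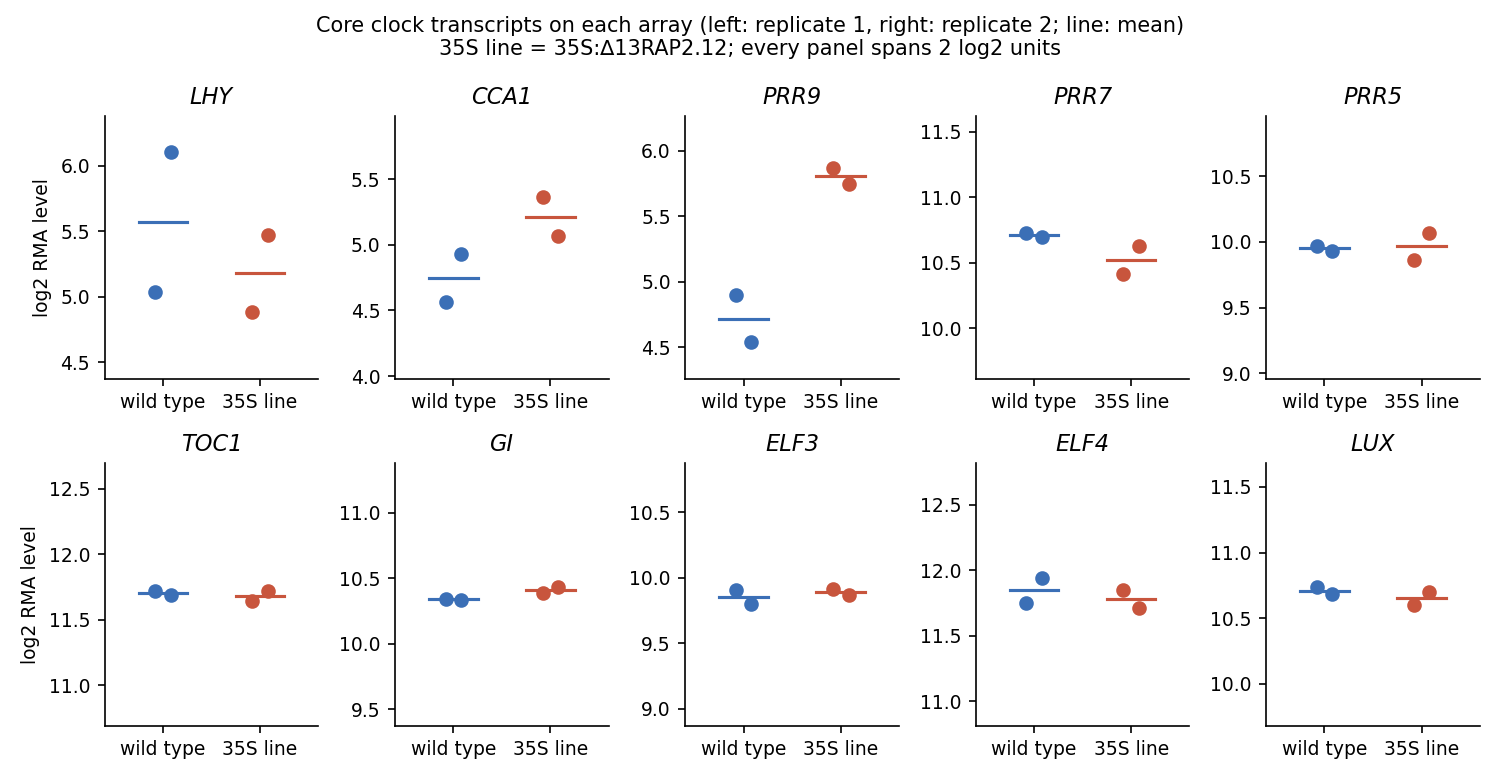
Log2 RMA level (vertical axis, each panel spanning 2 log2 units) of the 10 core clock transcripts on each array, with wild type in blue and the arrays labelled 35S:∆13RAP2.12 in red. Points are arrays and lines are group means. The points of PRR9 lie at 4.90 and 4.54 against 5.86 and 5.74, whereas those of TOC1, GI, ELF3 and LUX lie close together in both groups.

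A p above the threshold does not show that levels were equal, and the intervals give the size of change that these arrays still allow. The 95% interval of the difference lay within 1 log2 unit of 0, a 2-fold change either way, for 8 of the 10 genes and for 82.6% of all probe sets. LHY and PRR9 were the exceptions. For the 6 genes with the smallest differences, the largest change within the interval ran from 1.25-fold for TOC1 to 1.34-fold for ELF4. For PRR7 it was 1.45-fold and for CCA1 1.96-fold. For LHY it was 2.82-fold and for PRR9 2.88-fold, and LHY had the largest standard error of the 10.

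**Figure D2:**
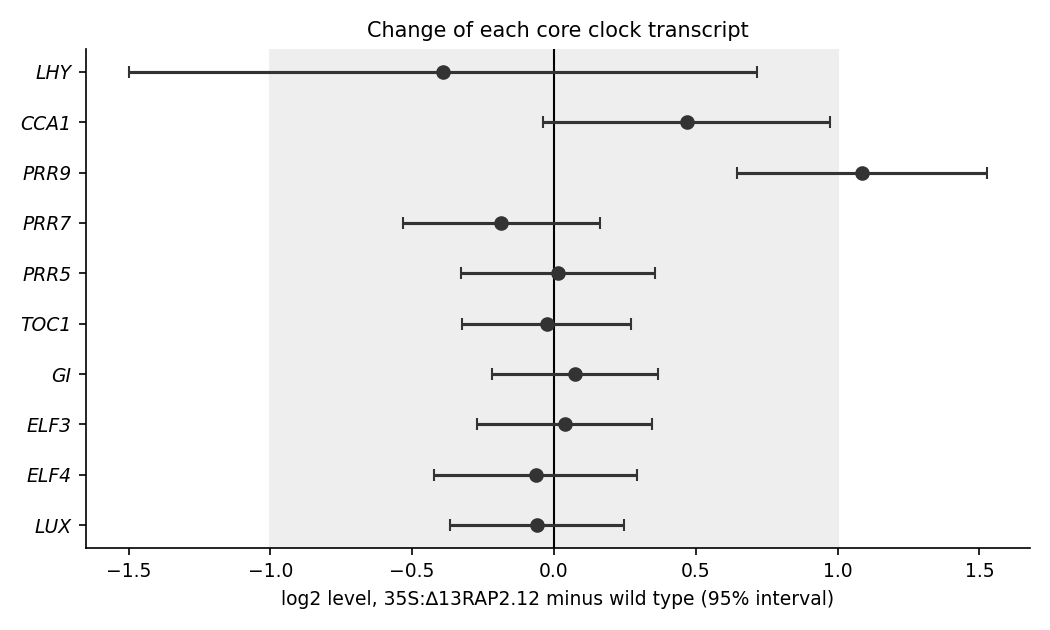
Log2 difference (arrays labelled 35S:∆13RAP2.12 minus wild type, horizontal axis) of each core clock transcript, with points for the estimate and bars for the 95% interval from limma. The shaded band marks changes within 1 log2 unit. The intervals of LHY and PRR9 reach outside the band, and that of PRR9 alone leaves out 0.

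The dawn factors gave low signals at this hour, and those of LHY were uneven between arrays. LHY, a MYB repressor of evening genes, had levels of 5.04 and 6.10 in the wild type and of 4.89 and 5.48 on the labelled arrays. The groups overlapped, and the wild-type arrays lay farther apart than the group means did. The log2 difference was -0.39 (SE 0.42, 95% interval -1.50 to 0.72, adjusted p = 0.713), and its sign rested on wild type replicate 2: without that array it was 0.14, and without wild type replicate 1 it was -0.92. CCA1, the close partner of LHY in the same repression, had 4.56 and 4.93 in the wild type and 5.37 and 5.06 on the labelled arrays. Both labelled arrays were above both wild-type arrays, by a margin smaller than the gap within either group. The log2 difference of CCA1 was 0.47 (SE 0.19, 95% interval -0.04 to 0.97, adjusted p = 0.340), and it stayed between 0.29 and 0.65 when each array was left out in turn. The 2 dawn genes therefore had differences of opposite sign, neither of which passed. The wild-type mean of CCA1, 4.75, lay just under the lower quartile of all probe sets and that of LHY, 5.57, above it. Without detection calls, how much of these low values is signal above background is unknown.

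PRR9 had the largest difference of the 10 genes. PRR9 is the earliest of the pseudo-response regulators, a light-induced repressor of CCA1 and LHY. Its levels were 4.90 and 4.54 in the wild type, 4.72 ± 0.25 (SD, n = 2), and 5.86 and 5.74 on the labelled arrays, 5.80 ± 0.08 (SD, n = 2). Both labelled arrays were higher than both wild-type arrays, by more than the gap within either group. The log2 difference was 1.09 (SE 0.17, 95% interval 0.65 to 1.53), and the interval corresponds to 1.57-fold to 2.88-fold. It did not pass (unadjusted p = 0.00178, limma adjusted p = 0.0648). A difference of this size or larger was found in 3.28% of all probe sets. The adjusted p depended on which probe sets entered the test. Once probe sets below the 25th percentile of mean level were left out, PRR9 passed with the same difference (adjusted p = 0.0404), as did 4.32% of the 20869 probe sets then tested. It was kept by this filter only through the labelled arrays, since the wild-type mean of 4.72 is below the filter's bound of 4.82, so that call adds no support. It narrowly missed when the prior variance followed the level (adjusted p = 0.0506), a fit in which 6.32% of all probe sets passed. Leaving out each array in turn gave differences from 0.91 to 1.27, none of which passed. Those fits leave 1 residual degree of freedom and called fewer of all probe sets than the main fit. The wild-type mean was below the lower quartile of 4.76 for all probe sets, so the exact size of the difference is not determined.

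The later pseudo-response regulators showed small differences. PRR7, which follows PRR9 around midday, had levels of 10.72 and 10.69 in the wild type and of 10.42 and 10.63 on the labelled arrays. Both labelled arrays were lower, replicate 2 of them by little. The log2 difference was -0.18 (SE 0.13, 95% interval -0.53 to 0.16, adjusted p = 0.567). PRR5, the afternoon member of the family and a target of ZTL for breakdown, had 9.97 and 9.93 in the wild type and 9.86 and 10.07 on the labelled arrays, which enclosed the wild-type values. Its difference was 0.02 (SE 0.13, 95% interval -0.33 to 0.36, adjusted p = 0.969). TOC1, the evening member that represses CCA1 and LHY at night, had 11.72 and 11.69 in the wild type and 11.64 and 11.72 on the labelled arrays. The groups overlapped, and the difference of TOC1 was -0.03 (SE 0.11, 95% interval -0.32 to 0.27, adjusted p = 0.939). The differences of PRR5 and TOC1 were well within their standard errors, so no direction is given for either. Median centring, which shifts all genes alike, gave -0.01 for PRR5, and a further quantile normalization gave 0.02 for TOC1.

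GI and the evening complex were nearly level between the lines. GI, which also links the clock to flowering through FKF1 and CONSTANS, had levels of 10.34 and 10.34 in the wild type and of 10.39 and 10.44 on the labelled arrays. The labelled arrays were both slightly higher, and the difference was 0.07 (SE 0.11, 95% interval -0.22 to 0.37, adjusted p = 0.80). ELF3, the scaffold of the evening complex, had 9.91 and 9.80 in the wild type and 9.92 and 9.86 on the labelled arrays. Its groups overlapped, with a difference of 0.04 (SE 0.12, 95% interval -0.27 to 0.35, adjusted p = 0.912). ELF4, a small protein that binds ELF3, had 11.75 and 11.94 in the wild type and 11.85 and 11.71 on the labelled arrays. The groups of ELF4 overlapped too, with a difference of -0.06 (SE 0.13, 95% interval -0.42 to 0.29, adjusted p = 0.863). LUX, the GARP-family factor that brings the complex to DNA, had 10.74 and 10.68 in the wild type and 10.60 and 10.70 on the labelled arrays. The difference of LUX was -0.06 (SE 0.12, 95% interval -0.37 to 0.25, adjusted p = 0.850), and its groups overlapped.

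The clock genes differed among themselves in how closely the arrays of 1 line agreed. LHY had the widest gap between the wild-type arrays, 1.07 log2 units, and 1.27% of all probe sets had a gap at least as wide. On the labelled arrays its gap was 0.59, matched or exceeded by 7.90% of all probe sets. The gaps of CCA1 were 0.36 and 0.30, and those of PRR9 0.36 and 0.12. These 3 genes had mean levels between the lower quartile and the median of all probe sets, where the median gap over all probe sets was 0.26 in the wild type and 0.24 on the labelled arrays. The other 7 lay above the upper quartile, where the medians were 0.11 and 0.07. Among them GI was closest in the wild type, at 0.0044, and ELF4 farthest, at 0.19. On the labelled arrays PRR7 and PRR5 had the widest gaps of these 7, at 0.21 and 0.20, and GI the narrowest, at 0.05.

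**Figure D3:**
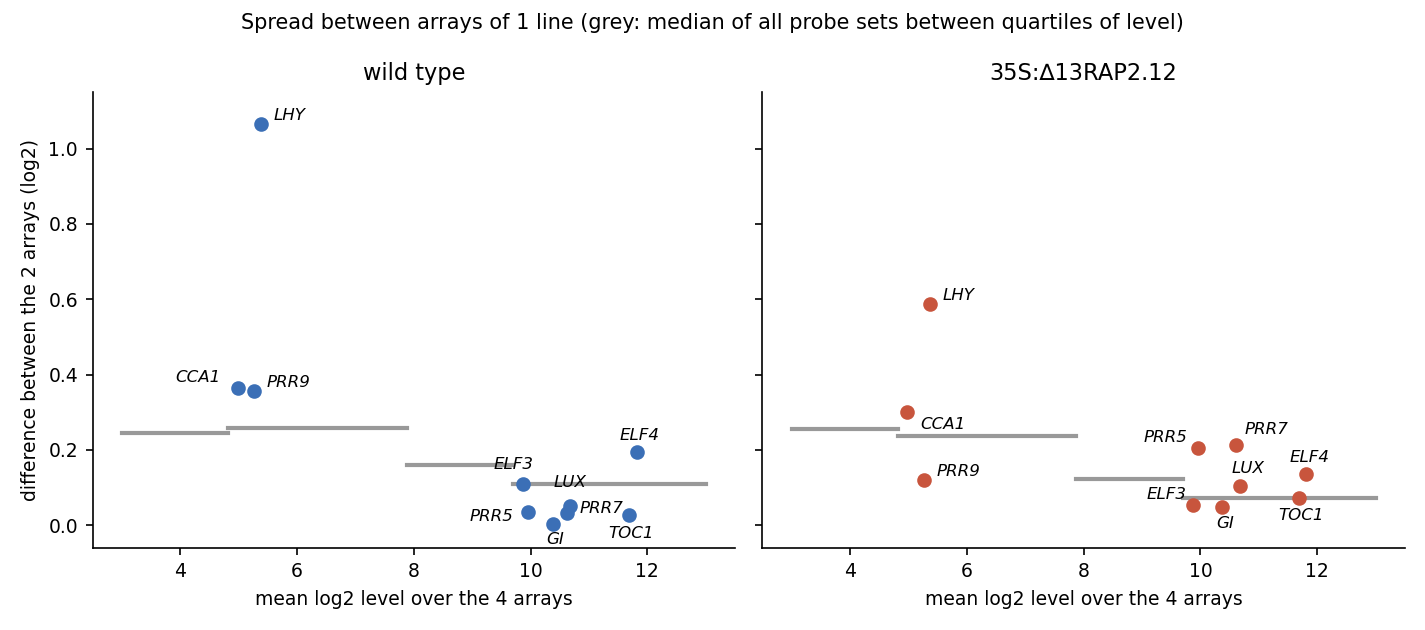
Difference between the 2 arrays of a line (vertical axis, log2 units) against the mean log2 level over the 4 arrays (horizontal axis) for the 10 core clock transcripts, for wild type (left) and 35S:∆13RAP2.12 as labelled (right). Grey lines give the median of all probe sets between the quartiles of mean level. LHY stands highest in both panels, at 1.07 and 0.59, and 7 genes lie together above the upper quartile.

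Around the core, 71 further genes of the clock, its outputs and its light inputs were drawn up as 7 lists. Of these, 1 was higher, 1 lower and 69 did not pass, so that 2.82% were called beside 2.17% of all probe sets. The median log2 difference over the 71 genes was -0.01 and the median size 0.12. The call count was 5 of 71 when the prior variance followed the level, a fit that also called 6.32% of all probe sets. It was 0 without any 1 of the 4 arrays, in fits with 1 residual degree of freedom that called 0 to 315 of all probe sets.

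The Reveille list holds MYB factors related to CCA1 and LHY, several of which activate evening genes. Of its 8 genes 1 was lower, 0 higher and 7 did not pass. The lower gene was ASG4 (AT1G01520), with levels of 6.73 and 7.04 in the wild type and of 5.39 and 5.47 on the labelled arrays. The groups lay well apart, and ASG4 fell by 1.46 on the log2 scale (SE 0.15, adjusted p = 0.0270). With each array left out its change ranged from -1.62 to -1.30, and it no longer passed in these fits, which leave 1 residual degree of freedom. RVE8 and RVE4, activators of evening genes, had differences of 0.31 (adjusted p = 0.322) and 0.39 (adjusted p = 0.225). The list median was 0.12 and its median size 0.19, and 0 of the 8 genes differed by less than 0.1. RVE8 and RVE4 are named here after their values were seen.

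The LNK genes encode coactivators that work with the Reveille factors, and none of 4 passed. LNK3 had the smallest p, with levels of 7.18 and 6.54 in the wild type and of 7.50 and 8.06 on the labelled arrays (log2 difference 0.92, SE 0.30, adjusted p = 0.255). The other 3 lay between -0.12 and -0.05. None of the 4 genes of the list of PRR3 and the ZTL family passed either. PRR3, a pseudo-response regulator that protects TOC1 from ZTL, was nearest at -0.29 (SE 0.13, adjusted p = 0.388). Of 5 relatives of evening complex genes none passed, and ELF4-L1 was nearest at -0.58 (SE 0.25, adjusted p = 0.362).

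Among 14 other clock regulators none passed, and 10 of them differed by less than 0.1, beside 31.8% of all probe sets. That share covers all levels. Above the upper quartile of mean level, where many of these genes lie, the median size over all probe sets was 0.12. CHE, a TCP factor that binds the CCA1 promoter and represses CCA1, was nearest. Its levels were 8.49 and 8.67 in the wild type and 7.80 and 7.80 on the labelled arrays, so that both labelled arrays were lower (log2 difference -0.78, SE 0.12, adjusted p = 0.0698). CHE passed when probe sets below the 25th percentile of mean level were left out (adjusted p = 0.0397), as did 4.32% of those then tested. It also passed when the prior variance followed the level (adjusted p = 0.0210), a fit in which 6.32% of all probe sets passed. In the other fits to all 4 arrays CHE did not pass (limma adjusted p from 0.0637 to 0.112). With each array left out its difference ranged from -0.87 to -0.69 and did not pass, in fits that leave 1 residual degree of freedom.

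Of 22 clock output genes 1 was higher, 0 lower and 21 did not pass. Over the 22 genes the median size of the difference was 0.23, beside 0.17 over all probe sets, and 4 of the 22 differed by less than 0.1. The higher gene was AT1G69570, entered in the list as CDF5 but without a symbol in the reference used. Its levels were 5.05 and 5.04 in the wild type and 6.30 and 6.11 on the labelled arrays (log2 change 1.16, SE 0.13, adjusted p = 0.0308). It no longer passed with any array left out, in fits that leave 1 residual degree of freedom. CBF2, a cold-response activator whose transcript the clock gates, had the largest difference of the list without passing, and is named after its values were seen. Its levels were 3.48 and 3.19 in the wild type and 4.28 and 5.05 on the labelled arrays (log2 difference 1.33, SE 0.29, adjusted p = 0.134), in a range where signal over background is unknown. GRP7 and GRP8, RNA-binding proteins used as readouts of the evening clock, differed by -0.12 and -0.01, and CAT3, an evening-phased catalase, by -0.02. These 3 were also picked after their values were seen, and none passed. COL2, CDF3 and CDF1, picked in the same way, had larger differences of -0.54, -0.52 and -0.65 without passing (limma adjusted p = 0.114, 0.175 and 0.319). Of the 22 differences, 10 were above 0 and 12 below.

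None of 14 light input genes passed, and 12 of them differed by less than 0.1, beside 31.8% of all probe sets. That share covers all levels. Above the upper quartile of mean level, where many of these genes lie, the median size over all probe sets was 0.12. The far-red photoreceptor PHYA was nearest, with levels of 8.62 and 8.29 in the wild type and of 8.92 and 8.94 on the labelled arrays (log2 difference 0.48, SE 0.15, adjusted p = 0.247). The list median was -0.01 and its median size 0.05.

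**Figure D4:**
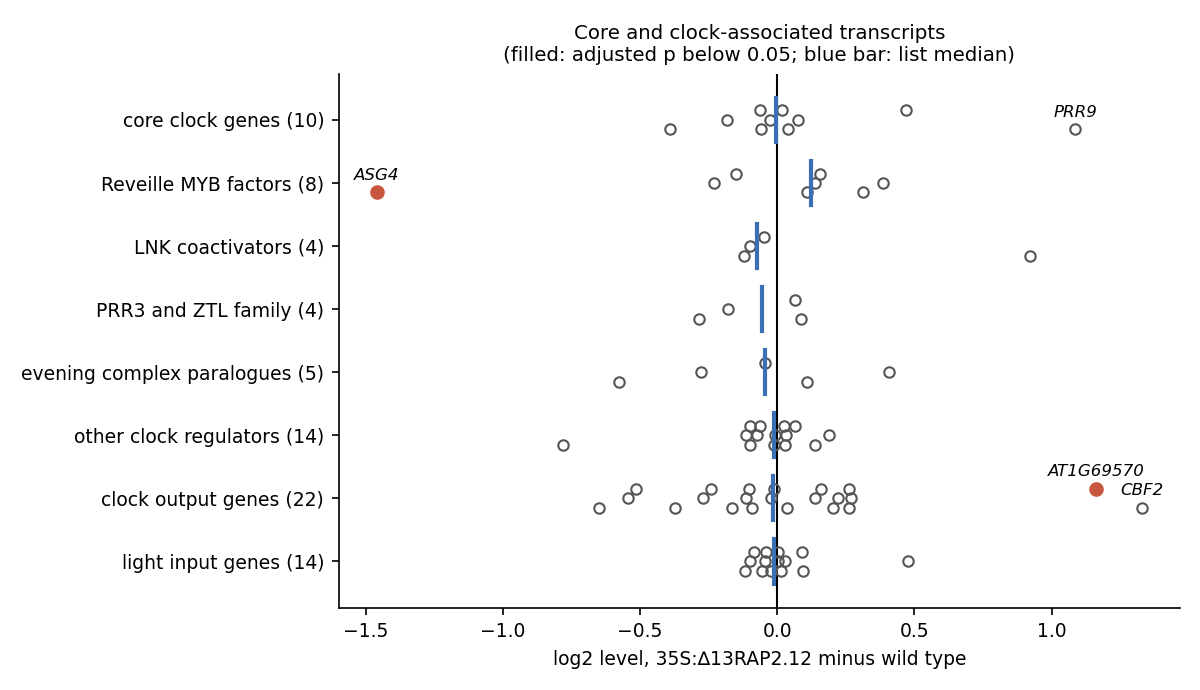
Log2 difference (arrays labelled 35S:∆13RAP2.12 minus wild type, horizontal axis) of each gene in the core clock and in 7 further lists (vertical axis, number of genes in brackets). Circles are genes, filled where the adjusted p was below 0.05, and blue bars are list medians. Only ASG4 at -1.46 and AT1G69570 at 1.16 are filled, and all list medians lie between -0.07 and 0.12.

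PRR9 and CCA1 are near neighbours in the genome, with 3 genes between them in the reference order (TAIR10.1), AT2G46800, AT2G46810 and AT2G46820. None of the 3 passed. AT2G46810 had the largest difference, from 9.21 in the wild type to 9.95 on the labelled arrays (log2 difference 0.74, SE 0.17, adjusted p = 0.142), while AT2G46800 and AT2G46820 differed by 0.0012 and -0.06. PRR7 likewise lies close to RVE4, with 2 measured genes between them, of which none passed.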

How the data were processed

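The authors deposited 1 log2 value per probe set and array. RMA is named in the submitters' processing notes, and the log2 scale was read from the range of the values. RMA corrects background, normalizes by quantiles and sums up the probes of a probe set. Software, probe set definition and genome build were not found in the labels, so no coordinates are printed. All 4 value columns were used and 0 left out. Symbols came from the RefSeq table of assembly TAIR10.1, which matched 27241 of 27826 loci, and genes it does not name keep their locus.

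No further normalization or filter was applied. Lines were compared by lmFit and eBayes of limma 3.58.1 (R 4.3.3) without covariates. P-values were adjusted by Benjamini-Hochberg over the whole table, with a threshold of 0.05. Errors beside differences are moderated standard errors, and intervals are 95% intervals, not adjusted for the number of genes. The fit was run on simulated data with planted changes. How often changes of the sizes seen here were found again is not given, so this run lends no support to the results. Named genes were the 10 members, RAP2.12 and, per list, up to 4 called genes of largest change or else the gene with the smallest p. Other genes are marked as picked later. Genes of like pattern were not sought, since 4 arrays are too few. The members and lists were chosen with earlier results of these data known. Alternatives tried were a replicate block, quantile normalization again, centring on the median, leaving out probe sets below the 25th percentile of mean level, a trended or robust prior variance, other thresholds and each array left out. Deviations of same-numbered arrays from their group means correlated at 0.03, so the numbers were not taken to pair arrays. With 2 arrays a group, both pairs give this same value by construction. Figures were drawn with matplotlib 3.10.9.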

Additional observations from a re-analysis of the deposited data

How the results depend on the processing

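The count of core clock genes called was 0 under all alternatives run except 2: it was 1, PRR9, without probe sets below the 25th percentile of mean level and at an adjusted p below 0.10, where 4.32% of the probe sets tested passed in each case. PRR9 was kept by the filter only through the labelled arrays, as its wild-type mean lay below the filter's bound. It was 0 with the replicate block and with each array left out. The count over all probe sets, 603, was 1759 with an intensity trend, 1203 at a threshold of 0.10, 160 at 0.01, 515 with the replicate block and 0 to 315 with each array left out. The replicate numbers pair no arrays by the labels, and the block moved no core clock gene across the threshold. The count of the 71 further genes, 2, was 1 with the replicate block, 5 with an intensity trend, 0 at a threshold of 0.01 and 0 with each array left out. The gene lost under the block was AT1G69570 (adjusted p = 0.0516). Differences that did not pass changed sign for PRR5 with median centring (-0.0105), by a shift common to all genes, and for TOC1 with a further quantile normalization (0.0227). With each array left out the differences ranged from -0.92 to 0.14 for LHY, -0.0863 to 0.12 for PRR5, -0.0624 to 0.0110 for TOC1, -0.0175 to 0.0933 for ELF3, -0.16 to 0.0324 for ELF4 and -0.0529 to 0.17 for RAP2.12. The cause was not tested. Fits without an array leave 1 residual degree of freedom and assume that the lone array varies like the other group. Only 2 arrays a line and the lack of detection calls limit the precision, most for LHY, CCA1 and PRR9.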
